A study of Rattus norvegicus with 2 samples.

Results

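The genes described here are the ligands and receptors of the classical axon guidance families, measured in single cells of the rat hypothalamus. They were chosen by symbol alone: semaphorins (*Sema3* to *Sema7*), plexins, neuropilins, ephrins, Eph receptors, Slits, Robo receptors, netrins, netrin-G genes, *Dcc* and symbols that begin with *Unc5*. The rule found 71 of the 32883 genes in the files. Of these, 20 were semaphorins, 9 plexins, 2 neuropilins, 8 ephrins, 13 Eph receptors, 3 Slits, 4 Robo receptors, 3 netrins, 2 netrin-G genes and 5 netrin receptors. The remaining 2 symbols, *Unc50* (a Golgi membrane protein) and *Unc5cl*, share the letters of the rule but are not netrin receptors, and the 69 other genes are called guidance genes below.

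Cells came from the hypothalamus of female Sprague Dawley rats at PND 29, dissected around the anteroventral periventricular and arcuate nuclei, and their RNA was counted with the droplet-based Chromium 3′ method. In the SC300 group an implant of 300 µg estradiol benzoate (EB) in a silicone tube was placed at PND 0.5. Control rats are intact according to the sample labels, while the methods describe a tube filled with oil. Each group is 1 library from the pooled tissue of 3 rats, so the spread between rats cannot be seen and the groups were compared without a test. All levels are unique molecular identifiers (UMIs, 1 per captured RNA molecule) per 1000000 UMIs of the same cell type and library, written CPM, and intervals are exact 95% intervals that cover counting error only.

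Guidance molecules were first known for steering growing axons, and most of them are also used by glia and blood vessels after axons have grown. Semaphorins bind plexins, and the secreted class 3 members usually need a neuropilin as co-receptor. Ephrins are membrane-bound and signal to Eph tyrosine kinases on neighbouring cells, Slits bind Robo receptors, and netrins bind Dcc and the Unc5 receptors. In the hypothalamus, tanycytes line the floor of the third ventricle and reach to the median eminence, where neurosecretory axons end.

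Of 4488 Control and 4524 SC300 barcodes, 4296 and 4379 had at least 200 detected genes and were kept, with 51382276 and 56390355 UMIs. The libraries shared 7 of the kept barcode sequences. Cells were gated with marker lists into 12 types, of which 9 had at least 50 cells in each library. In Control and SC300, these were 461 and 452 neuron-like, 1269 and 1425 astrocyte-like, 238 and 152 tanycyte-like, 68 and 52 ependymal-like, 351 and 347 oligodendrocyte precursor-like, 133 and 134 newly formed oligodendrocyte-like, 366 and 464 mature oligodendrocyte-like, 505 and 489 microglia-like, and 257 and 225 endothelial-like cells. By their markers, names were weakest for the tanycyte-like cells, where 5 of 10 listed markers were at least 2-fold above the other cells. The ependymal list summed to 2633 and 2530 CPM in them. By graph clusters over both libraries, 383 tanycyte-like cells fell in the tanycyte cluster. Of the precursor-like cells, 619 fell in the precursor cluster and 63 in the macrophage cluster. Neuropeptide genes that mark the hypothalamus were present in both libraries, with *Agrp* at 7471 UMIs in Control and 6174 in SC300. The libraries differed in *Pmch*, a gene of lateral hypothalamic neurons, with 271 UMIs in Control and 39616 in SC300, and the cause was not tested.

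Highest types and limits over types below refer to these 9. In the other 3 types (mural-like, stromal-like and macrophage-like), each under 50 cells in at least 1 library, *Epha2*, *Efnb1*, *Robo2*, *Slit3*, *Sema6c* and *Epha7* had a type with higher CPM than their highest of the 9 in both libraries.

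Guidance genes were spread over all cell types rather than held by neurons, and most that reached 20 CPM had the same highest type in both libraries. At least 20 CPM in 1 of the 9 types was reached in both libraries by 37 of 69 guidance genes, and 34 of these 37 had the same highest type in Control and SC300. For 22 the highest type was the same and its interval lay above that of the type second in CPM in both libraries. The others did not meet this: *Efna1*, *Efnb1*, *Efnb2*, *Epha4*, *Epha5*, *Nrp2*, *Plxna1*, *Plxna3*, *Robo2*, *Sema3d*, *Sema4c*, *Sema4d*, *Sema6b*, *Sema6d* and *Unc5c*. The limit asks for 20 CPM in the same type in both libraries, which itself favours a shared highest type. No share over all genes was taken for these counts. Neuron-like cells held 18 genes at 20 CPM or more in both libraries, precursor-like cells 16, endothelial-like cells 11, newly formed oligodendrocyte-like cells 10, tanycyte-like and mature oligodendrocyte-like cells 8 each, astrocyte-like and microglia-like cells 7 each, and ependymal-like cells 6. The remaining 32 guidance genes stayed below this level in at least 1 library, and 14 of them had fewer than 100 UMIs over both libraries.

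**Figure D1:**
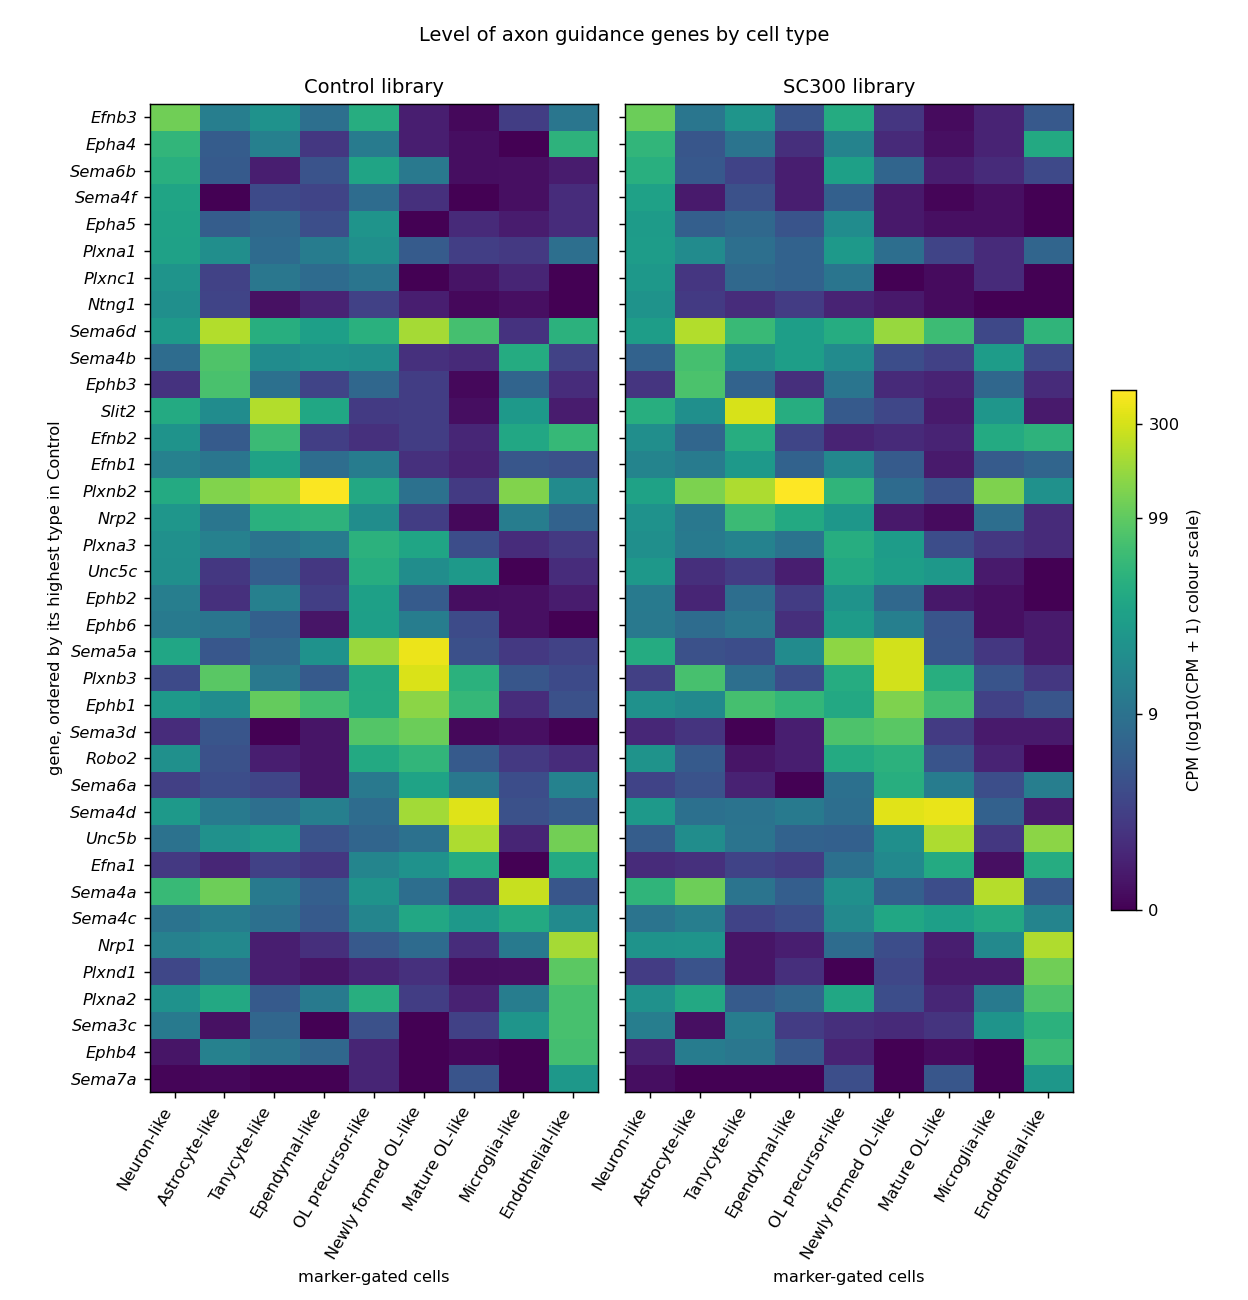
Level of 37 guidance genes (rows) in 9 marker-gated cell types (columns) of the Control library (left) and the SC300 library (right), with colour giving CPM on a log10(CPM + 1) scale and OL standing for oligodendrocyte. Blocks of high level sit in the same columns in both panels, with *Plxnb2* brightest in the ependymal-like column, at 429 CPM in Control and 438 CPM in SC300.

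Semaphorins divided the glial types among themselves. *Sema4d*, a transmembrane class 4 semaphorin that inhibits axon growth and is shed from the cell surface, was at 333 CPM (320 to 346) in mature oligodendrocyte-like cells of Control and at 363 CPM (351 to 374) in those of SC300. *Sema4a* was highest in microglia-like cells, at 267 CPM in Control and 226 CPM in SC300, followed by astrocyte-like cells at 116 CPM in both libraries. *Sema6d*, a transmembrane ligand of plexin A receptors, was highest in astrocyte-like cells at 221 and 223 CPM, and came next in newly formed oligodendrocyte-like cells at 194 and 173 CPM. In Control these neighbours in the order did not separate beyond their intervals (212 to 231 CPM against 172 to 218 CPM), and in SC300 they did (214 to 232 CPM against 155 to 193 CPM).

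*Sema4b* was the other semaphorin highest in astrocyte-like cells, at 82.3 CPM in Control and 73.0 CPM in SC300. Neuron-like cells led for *Sema6b*, at 45.7 and 46.0 CPM, and for *Sema4f*, at 34.1 and 31.6 CPM. The secreted *Sema3c* was highest in endothelial-like cells, at 74.0 and 49.9 CPM (log2 ratio of SC300 over Control −0.57, −0.98 to −0.16). *Sema7a*, which is anchored to the membrane by a lipid and binds plexin C1, was also highest there, at 24.7 and 24.4 CPM. *Sema4c* was nearly equal in microglia-like cells (40.1 and 38.6 CPM) and newly formed oligodendrocyte-like cells (37.8 and 37.2 CPM), so its order could not be set at this depth. The class 3 ligands *Sema3a*, *Sema3b* and *Sema3f* had 28 to 70 UMIs per library over all cells and stayed below 5 CPM in each of the 9 types. *Sema3e*, a ligand of plexin D1, was highest in newly formed oligodendrocyte-like cells at 15.5 and 21.3 CPM, and *Sema3g* in endothelial-like cells at 15.3 and 18.7 CPM.

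Several plexin and neuropilin receptors also had a leading cell type. *Plxnb2*, a receptor for class 4 semaphorins, was highest in ependymal-like cells, at 429 CPM (404 to 456) in Control and 438 CPM (406 to 472) in SC300. Tanycyte-like cells followed at 175 and 211 CPM, while astrocyte-like (141 and 133 CPM) and microglia-like cells (141 and 135 CPM) did not differ beyond their intervals. *Plxnb1*, a high-affinity receptor of Sema4d, was low, with 96 and 93 UMIs over all cells and its highest level in astrocyte-like cells at 6.95 and 6.19 CPM. *Nrp1*, the co-receptor for class 3 semaphorins and for VEGF, was highest in endothelial-like cells at 194 CPM (173 to 216) and 216 CPM (195 to 238). *Plxnd1*, a vascular plexin, had the same highest type, with 95.7 and 117 CPM, and *Plxna2* reached 74.6 and 79.4 CPM there. Endothelial-like cells held *Nrp1*, *Plxnd1* and the ligand *Sema3c* together.

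*Nrp2* followed the ventricular wall, with 50.4 CPM in ependymal-like and 47.1 CPM in tanycyte-like cells of Control. In SC300 the order was the other way, with 39.6 CPM in ependymal-like and 63.3 CPM in tanycyte-like cells. In Control the intervals of the 2 types overlapped (41.8 to 60.2 CPM and 39.8 to 55.5 CPM). *Plxna1* and *Plxnc1* were highest in neuron-like cells, at 32.1 and 28.0 CPM and at 22.6 and 24.6 CPM. For *Plxna1* the interval overlapped that of the next type in SC300. *Plxna3* was highest in precursor-like cells at 49.6 and 43.8 CPM, and *Plxna4* was below 3 CPM in every type.

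Ephrins of the B class were highest in neuron-like, tanycyte-like or endothelial-like cells. *Efnb3*, a ligand of EphA4 and EphB receptors that repels axons at the midline, was at 119 CPM (113 to 126) and 112 CPM (106 to 118) in neuron-like cells, more than in any other type. *Efnb2*, which marks arterial vessels, was at 63.5 CPM in tanycyte-like and 59.3 CPM in endothelial-like cells of Control, and at 43.8 and 50.5 CPM in SC300. Microglia-like cells also held *Efnb2*, with 128 and 147 UMIs. Their level was 7.91-fold and 6.28-fold that of astrocyte-like cells, beside 13.4-fold and 6.69-fold for tanycyte-like cells. Ependymal-like cells had 5 and 4 UMIs of *Efnb2*, a level 30.5-fold and 16.9-fold below tanycyte-like cells. *Efnb1* was highest in tanycyte-like cells, at 32.7 and 26.3 CPM. *Efna1* had nearly the same level in mature oligodendrocyte-like cells (41.8 and 41.0 CPM) and endothelial-like cells (41.1 and 42.6 CPM). The other A-class ephrins, *Efna2* to *Efna5*, stayed below 7 CPM in every type.

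The Eph receptors had their highest levels in different cell types. *Epha4* was highest in neuron-like cells at 55.1 and 54.4 CPM, with endothelial-like cells next at 50.5 and 39.7 CPM. *Ephb4*, the venous partner of *Efnb2*, was highest in endothelial-like cells at 70.5 and 63.0 CPM. *Ephb3* was highest in astrocyte-like cells at 76.4 CPM (71.0 to 82.0) and 78.6 CPM (73.5 to 84.0), and no other type exceeded 10 CPM. *Ephb1* was highest in newly formed oligodendrocyte-like cells at 154 and 137 CPM. *Ephb2* and *Ephb6*, the latter a receptor without kinase activity, were highest in precursor-like cells at 31.3 and 21.9 CPM and at 29.9 and 27.8 CPM. *Epha5* was highest in neuron-like cells, at 32.6 and 27.5 CPM. Precursor-like cells came next for it, at 22.4 CPM in Control, and the intervals of these types overlapped in both libraries. *Epha3*, *Epha7* and *Epha8* stayed below 4 CPM in every type. *Epha2* was at 8.19 and 12.3 CPM in microglia-like cells, its highest among the 9 types, and had 19 and 31 UMIs in the few mural-like cells, at 61.0 and 84.8 CPM.

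*Slit2* was concentrated in tanycyte-like cells. It was at 220 CPM (204 to 237) in tanycyte-like cells of Control and at 306 CPM (285 to 328) in those of SC300, against 18.4 and 20.1 CPM in astrocyte-like cells. The ratio of tanycyte-like to astrocyte-like cells was 11.9-fold in Control and 15.2-fold in SC300. The type second in CPM was nearer, 5.39-fold below tanycyte-like cells in Control and 6.88-fold below in SC300. In Control this type was the neuron-like cells, at 40.8 CPM. For ependymal-like over tanycyte-like cells the log2 ratio was −2.59 in Control and −2.79 in SC300. A *Slit2* UMI was found in 175 of 238 and 123 of 152 tanycyte-like cells, and in 2 of 366 and 6 of 464 mature oligodendrocyte-like cells, where the gene was close to 0. *Slit3* had its highest level in the same cells at 22.3 and 15.5 CPM, while *Slit1* was highest in neuron-like cells at 14.8 and 14.1 CPM. Of the receptors, *Robo2* was highest in newly formed oligodendrocyte-like cells (54.0 and 48.9 CPM), followed by precursor-like cells (39.8 and 40.4 CPM) and neuron-like cells (20.3 and 22.1 CPM), and in tanycyte-like cells it was below 1 CPM. *Robo1* reached 8.49 and 6.74 CPM in precursor-like cells, and *Robo4*, a receptor known from vessels, had 1 and 3 UMIs in all cells and none in the 9 types.

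Netrins had few UMIs in every type, while some of their receptors had clear cell types. *Ntn1*, the netrin that attracts axons through Dcc, was highest in precursor-like cells at 15.2 and 10.9 CPM, and *Ntn3* and *Ntn4* stayed below 4 CPM. *Unc5b*, a repulsive netrin receptor also used by vessels, was at 210 CPM (200 to 221) and 208 CPM (199 to 216) in mature oligodendrocyte-like cells and at 121 and 153 CPM in endothelial-like cells. *Unc5c* was highest in precursor-like cells, at 44.3 and 38.7 CPM. *Dcc* had 213 and 180 UMIs in all cells, and its level was highest in precursor-like cells in both libraries, at 8.84 CPM in SC300. *Ntng1*, a lipid-anchored relative of netrins that acts at synapses, was neuronal at 20.1 and 21.7 CPM. *Unc50* was at 51.6 to 137 CPM in every type of Control, without a leading type, and *Unc5cl* had 2 and 1 UMIs.

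Within the oligodendrocyte lineage, several guidance genes differed from stage to stage. *Efnb3* was at 43.8 and 42.1 CPM in precursor-like cells and had only 1 and 3 UMIs in newly formed oligodendrocyte-like cells. *Sema5a*, a transmembrane semaphorin that binds plexin B3, was at 178 and 159 CPM in precursor-like cells, at 368 CPM (338 to 400) and 293 CPM (269 to 319) in newly formed ones, and at 3.41 and 4.17 CPM in mature ones. From the newly formed to the mature stage this was a log2 ratio of −6.76 in Control and −6.14 in SC300. *Sema3d*, a secreted class 3 ligand, was close between precursor-like and newly formed cells and nearly absent from mature ones, with 86.3 and 79.6 CPM in precursor-like, 111 and 93.6 CPM in newly formed and 1 and 20 UMIs in mature cells.

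The receptor *Plxnb3* peaked at the same stage as its ligand *Sema5a*. It was at 40.7 and 43.0 CPM in precursor-like cells, at 313 CPM (285 to 343) and 293 CPM (269 to 319) in newly formed ones, and at 48.1 and 45.1 CPM in mature ones. The level in newly formed cells was 7.69-fold and 6.82-fold that in precursors and 6.51-fold and 6.50-fold that in mature cells. *Ephb1* had a smaller peak, 3.70-fold and 3.58-fold above precursors, and *Sema6a*, a plexin A ligand, was 3.08-fold and 5.31-fold above them. *Robo2* kept its level from precursor-like to newly formed cells within the intervals (log2 ratio 0.44, −0.01 to 0.89, and 0.28, −0.15 to 0.70) and was 11.8-fold and 12.6-fold lower in mature cells.

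*Sema4d* was higher from the newly formed stage on, and *Unc5b* at the mature stage. *Sema4d* had 17 and 19 UMIs in precursor-like cells and was at 193 and 338 CPM in newly formed ones and at 333 and 363 CPM in mature ones. *Unc5b* was at 8.77 and 19.7 CPM in newly formed cells and higher in mature ones by log2 ratios of 4.58 (3.81 to 5.50) and 3.40 (2.93 to 3.91). *Plxna3*, by contrast, was 10.7-fold and 8.75-fold lower in mature than in newly formed cells. The stages rest on marker lists that do not include any guidance gene, but each is a range of cells along a gradual change, and the mature list summed to 5700 and 7957 CPM in the newly formed oligodendrocyte-like cells.

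**Figure D2:**
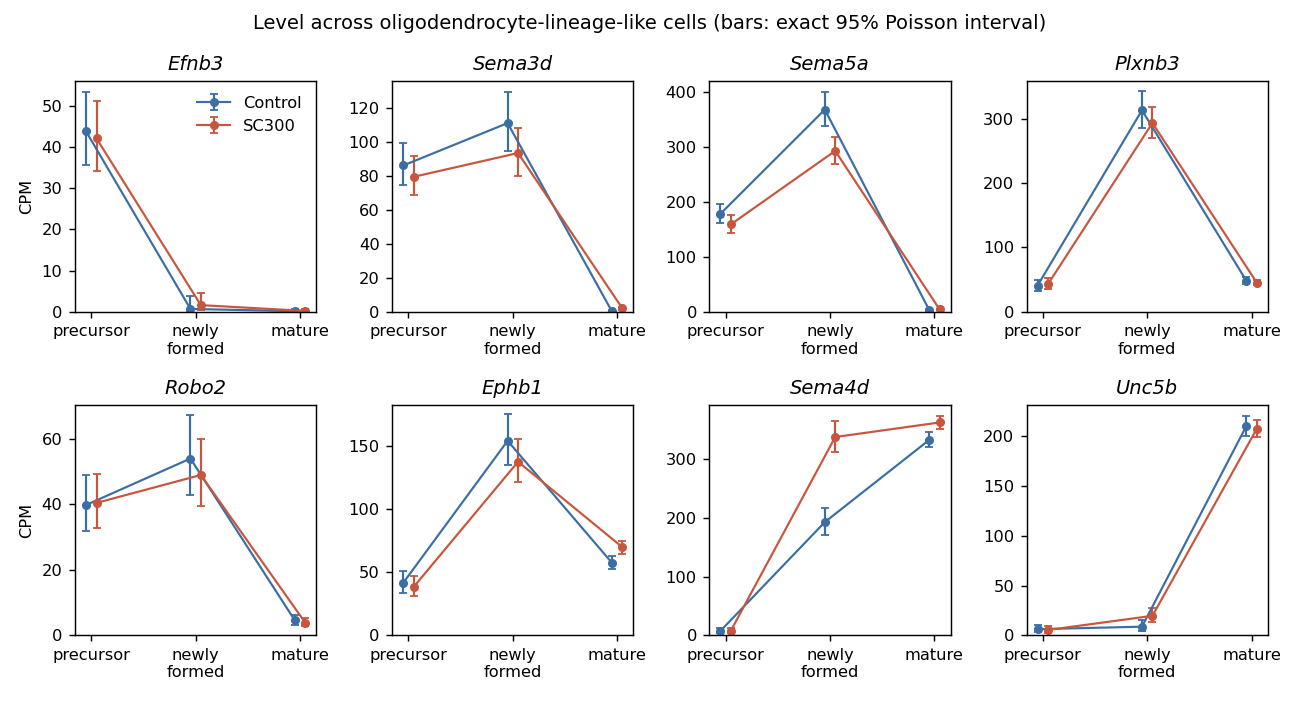
CPM (vertical axis, linear from 0) of 8 guidance genes in oligodendrocyte precursor-like, newly formed and mature oligodendrocyte-like cells, with Control in blue and SC300 in red, points for the level and bars for its exact 95% Poisson interval. *Plxnb3* rises from 40.7 to 313 CPM and returns to 48.1 CPM in Control, while the *Sema4d* points of the newly formed stage lie apart, at 193 CPM in Control and 338 CPM in SC300.

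Promoter windows, from 250 bases before to 50 after the RefSeq start in the GRCr8 assembly, could be matched by symbol for 56 of the 71 genes. The windows of 4 genes of the lineage comparison are shown, picked after the matches had been seen: 3 with their highest level in newly formed oligodendrocyte-like cells and *Unc5b*, which peaks at the mature stage. Capitals mark ACAAAG or ACAATG on either strand (also written CTTTGT and CATTGT), short motifs of the kind SOX transcription factors bind; these factors are known regulators of oligodendrocyte genes.
Plxnb3 promoter, chrX:156646624-156646923, plus strand: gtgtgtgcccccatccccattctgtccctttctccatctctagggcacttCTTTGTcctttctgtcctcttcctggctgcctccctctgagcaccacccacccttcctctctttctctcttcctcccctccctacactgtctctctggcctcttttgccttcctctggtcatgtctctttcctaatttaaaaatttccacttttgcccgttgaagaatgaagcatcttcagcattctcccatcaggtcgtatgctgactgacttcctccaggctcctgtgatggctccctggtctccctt
Sema3d promoter, chr4:23460922-23461221, minus strand: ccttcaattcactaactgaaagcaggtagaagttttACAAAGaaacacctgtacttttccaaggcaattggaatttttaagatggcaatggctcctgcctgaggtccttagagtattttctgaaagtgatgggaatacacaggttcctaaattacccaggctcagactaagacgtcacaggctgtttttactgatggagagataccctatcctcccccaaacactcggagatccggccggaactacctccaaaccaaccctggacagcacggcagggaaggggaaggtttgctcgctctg
Ephb1 promoter, chr8:111823710-111824009, minus strand: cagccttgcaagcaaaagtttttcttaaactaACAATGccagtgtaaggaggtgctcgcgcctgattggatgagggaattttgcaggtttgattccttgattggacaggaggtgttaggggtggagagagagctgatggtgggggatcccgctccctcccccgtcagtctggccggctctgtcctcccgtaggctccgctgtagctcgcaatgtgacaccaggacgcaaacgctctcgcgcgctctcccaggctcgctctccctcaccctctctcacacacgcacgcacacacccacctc
Unc5b promoter, chr20:29307221-29307520, minus strand: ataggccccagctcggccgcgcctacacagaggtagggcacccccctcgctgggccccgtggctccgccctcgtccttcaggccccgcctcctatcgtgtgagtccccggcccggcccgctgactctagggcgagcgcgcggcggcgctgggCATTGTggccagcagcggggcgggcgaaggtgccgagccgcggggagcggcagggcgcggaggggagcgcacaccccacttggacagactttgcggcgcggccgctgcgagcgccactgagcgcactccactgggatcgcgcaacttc

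Each of these windows held 1 match, while those of *Robo2*, *Sema6a* and *Plxna3*, also in the lineage comparison, held none. *Efnb3*, *Sema4d* and *Sema5a* of the same comparison had no window to search. A match to ACAAAG or ACAATG was found in 13 of 57 member windows (22.8%, since *Robo1* has 2 starts) and in 29.1% of all 33469 windows, so the share among members was not above that of all genes. The estrogen response element, searched as GGTCA, any 3 bases and TGACC, was in 0 of the member windows and in 9 of all windows. An element this rare is hardly to be found in 57 windows of any genes, so the 0 says nothing particular about members. Letters that match do not alone show that a factor binds.

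Among neuron-like cells, several guidance genes followed the transmitter type. Cells were split after the levels had been seen. *Gad*-positive cells (280 in Control and 265 in SC300) had UMIs of *Gad1*, *Gad2* or *Slc32a1* (GABA synthesis and transport) and none of *Slc17a6*. *Slc17a6*-positive cells (117 and 106) had UMIs of *Slc17a6* (the vesicular glutamate transporter of the hypothalamus) and none of those GABA genes. Cells with both (49 and 58) or neither (15 and 23) were left out. *Slit2* was at 75.2 and 82.2 CPM in *Slc17a6*-positive cells and at 23.6 and 23.2 CPM in *Gad*-positive ones, a log2 ratio of 1.67 (1.38 to 1.97) in Control and 1.83 (1.53 to 2.12) in SC300. *Ntng1* was 3.57-fold and 2.30-fold higher in *Slc17a6*-positive cells. *Unc5c* lay on the same side in both libraries, by 2.29-fold and 1.74-fold, as did *Robo2*, at 27.0 and 28.9 CPM against 15.6 and 19.2 CPM. *Ephb1* was at 47.2 and 28.6 CPM in *Slc17a6*-positive cells and at 17.5 and 16.2 CPM in *Gad*-positive ones. *Slit2* and its receptor *Robo2* were thus both higher in *Slc17a6*-positive cells.

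*Efnb3* was on the other side, with 137 and 133 CPM in *Gad*-positive against 90.5 and 79.4 CPM in *Slc17a6*-positive cells. *Sema3c* was also higher in *Gad*-positive cells, at 14.0 against 3.25 CPM in Control and 17.0 against 9.65 CPM in SC300. Many genes did not separate by transmitter: *Sema6b* had a log2 ratio of 0.18 (−0.11 to 0.47) in Control and 0.16 (−0.14 to 0.45) in SC300, and *Plxna3* of 0.015 (−0.44 to 0.45) and 0.11 (−0.35 to 0.55).

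**Figure D3:**
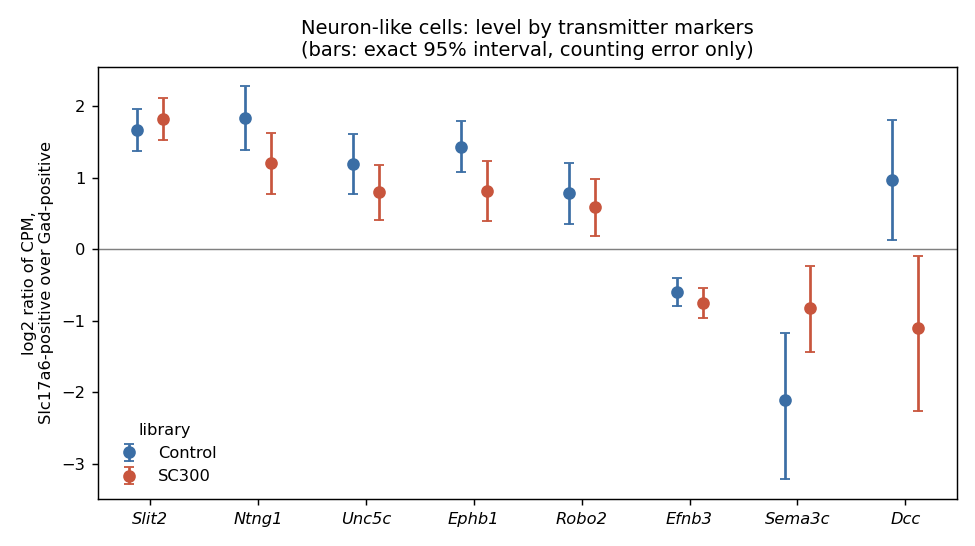
Log2 ratio of CPM between *Slc17a6*-positive and *Gad*-positive neuron-like cells (vertical axis) for 8 guidance genes, with Control in blue, SC300 in red and bars for the exact 95% interval of counting error. *Slit2* lies at 1.67 and 1.83, *Efnb3* at −0.60 and −0.75, and the *Dcc* points fall on opposite sides of 0.

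Between SC300 and Control, levels of guidance genes within a cell type were mostly close. Of 130 pairs of a guidance gene and a cell type with at least 100 UMIs (44 genes), 2 pairs were at least 1.5-fold higher in SC300 and 4 at least 1.5-fold lower. In pairs of all genes and types, 1.99% were that much higher and 2.54% that much lower, against 1.54% and 3.08% of the guidance pairs, so neither share stood far from the background. The median log2 ratio over the 130 pairs was −0.057. By type it ran from −0.15 in newly formed oligodendrocyte-like cells to 0.07 in endothelial-like cells, while the medians over all genes ran from −0.057 to 0.0013.

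**Figure D4:**
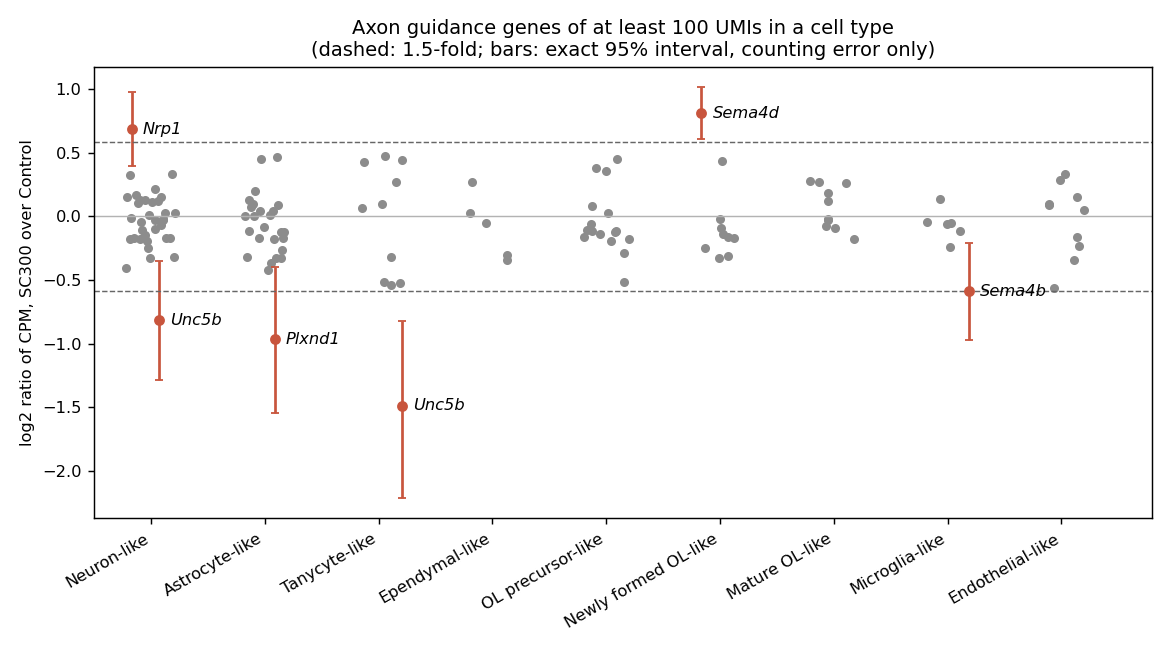
Log2 ratio of CPM, SC300 over Control (vertical axis), for each of 130 pairs of guidance gene and cell type, grouped by type with random sideways offsets, and with dashed lines at 1.5-fold. Grey points lie within 1.5-fold, and the 6 labelled red points with exact 95% intervals lie outside, with *Unc5b* in tanycyte-like cells lowest at −1.49 and *Sema4d* in newly formed oligodendrocyte-like cells highest at 0.81.

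The pair farthest from 0 was *Unc5b* in tanycyte-like cells. It had 82 UMIs in Control and 24 in SC300, or 26.8 CPM (21.4 to 33.3) and 9.56 CPM (6.12 to 14.2), a log2 ratio of −1.49 (−2.21 to −0.82). Of the Control cells 56 of 238 had a UMI and of the SC300 cells 18 of 152, as did 3 of 505 and 5 of 489 microglia-like cells, which nearly lacked the gene. Tanycyte-like cells also differed between the libraries in other lists: the tanycyte list summed to 3328 and 4335 CPM, the astrocyte list to 2349 and 1843 CPM and the mural list to 605 and 1566 CPM. Among types rich in *Unc5b*, markers of mature oligodendrocytes (58.0 and 87.6 CPM) and endothelial cells (42.9 and 47.4 CPM) were low in these cells. The mural list was not low, but it holds *Tagln*, also a leading gene of the graph cluster named for tanycytes. Which genes or cells gave its sum was not tested. Mural-like cells also held *Unc5b*, with 33 UMIs in Control and 47 in SC300. The log2 ratio of mural-like over endothelial-like cells was −0.19 (−0.77 to 0.34) in Control and −0.25 (−0.73 to 0.20) in SC300. Mural-like cells were mixed, with the endothelial list at 6702 and 6559 CPM, beside 18404 and 17537 CPM in endothelial-like cells. The part of the list differences of tanycyte-like cells in the *Unc5b* difference was not tested. In this type 3.46% of all genes were 1.5-fold higher and 6.24% were 1.5-fold lower, more than in the other 8 types in both directions.

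In the same cells *Slit2* was at 220 and 306 CPM, a log2 ratio of 0.48 (0.32 to 0.63) that stayed within 1.5-fold. *Ephb1* was at 104 and 72.1 CPM (log2 ratio −0.53, −0.80 to −0.26) and *Efnb2* at 63.5 and 43.8 CPM (−0.54, −0.89 to −0.19). *Plxnb2*, at 175 and 211 CPM, and *Nrp2*, at 47.1 and 63.3 CPM, lay on the side of *Slit2*.

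*Sema4d* in newly formed oligodendrocyte-like cells was the pair highest in SC300. It had 286 UMIs in Control and 635 in SC300, or 193 CPM (171 to 217) and 338 CPM (312 to 365), with a log2 ratio of 0.81 (0.60 to 1.01), while 2.24% of all genes in this type were 1.5-fold higher. The number of cells with a UMI was close, 57 of 133 and 62 of 134, and the 3 cells with the most UMIs carried 34.6% of them in Control and 24.4% in SC300. In endothelial-like cells, where the gene was near 0, 6 of 257 and 1 of 225 cells had a UMI. With every cell weighted alike the log2 ratio was 0.38, below 1.5-fold, and without those 3 cells of each library it was 1.04. The mature oligodendrocyte list was also higher in these cells of SC300, at 7957 against 5700 CPM, and the precursor list was lower, at 2712 against 3193 CPM. Their part in the *Sema4d* difference was not tested. In mature oligodendrocyte-like cells *Sema4d* differed by a log2 ratio of 0.12 (0.05 to 0.20).

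Neuron-like cells held 1 pair in each direction, of 35 tested, while 2.02% of all genes were 1.5-fold higher and 2.02% lower there. *Nrp1* was at 13.5 CPM (161 UMIs) in Control and at 21.7 CPM (268 UMIs) in SC300 (log2 ratio 0.68, 0.40 to 0.97). With every cell weighted alike the log2 ratio was 0.49, within 1.5-fold, and in cells thinned to 2000 UMIs that of the shares of cells with a UMI went from 0.35 to −0.062. In *Gad*-positive cells *Nrp1* was at 14.8 and 24.4 CPM, a log2 ratio of 0.72 (0.36 to 1.09). In *Slc17a6*-positive cells it was at 13.3 and 17.4 CPM, with a log2 ratio of 0.39 and an interval that included 0 (−0.22 to 1.00). *Unc5b* was at 8.99 CPM (107 UMIs) and 5.10 CPM (63 UMIs), a log2 ratio of −0.82 (−1.29 to −0.35). With every cell weighted alike its log2 ratio was −0.19, within 1.5-fold. *Unc5b* was at 9.79 and 4.69 CPM in *Gad*-positive cells, a log2 ratio of −1.06 (−1.72 to −0.43). In *Slc17a6*-positive cells it was at 8.14 and 6.85 CPM, with a log2 ratio of −0.25 and an interval that included 0 (−1.14 to 0.64). Endothelial markers in neuron-like cells summed to 31.1 and 35.8 CPM and mature oligodendrocyte markers to 49.6 and 147 CPM. Whether the 2 libraries caught different neurons was not tested, and such a difference could not be told apart from the groups here.

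The 2 remaining pairs were lower in SC300. *Plxnd1* in astrocyte-like cells was at 7.35 CPM (73 UMIs in 65 of 1269 cells) and 3.77 CPM (42 UMIs in 42 of 1425 cells), with a log2 ratio of −0.96 (−1.55 to −0.40), and 1.5% of all genes in this type were 1.5-fold lower. This is a low level, far below the 95.7 and 117 CPM of endothelial-like cells, and the endothelial list in astrocyte-like cells was at 27.1 and 20.4 CPM. *Sema4b* in microglia-like cells was at 42.1 CPM (144 UMIs) and 28.0 CPM (100 UMIs), with a log2 ratio of −0.59 (−0.97 to −0.21), just past 1.5-fold, a size that 2.48% of all genes passed downward in this type. It lay within 1.5-fold under 6 of 8 alternatives, down to a log2 ratio of −0.43 with every cell weighted alike. The astrocyte list, whose cells had the most *Sema4b*, was at 124 and 127 CPM in microglia-like cells.

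Other genes of guidance signalling were given by a list of 60 adaptors, co-receptors and cytoskeletal effectors, of which 59 were in the files. Of 252 pairs of such a gene and a type with at least 100 UMIs (54 genes), 7 (2.78%) were at least 1.5-fold higher in SC300 and 4 (1.59%) at least 1.5-fold lower, beside 1.99% and 2.54% of the pairs of all genes. The 2 largest ratios belonged to *Ngef* (ephexin, an exchange factor that acts downstream of EphA receptors). It was at 10.5 and 45.8 CPM in tanycyte-like cells, a log2 ratio of 2.13 (1.55 to 2.74), and at 42.9 and 82.8 CPM in astrocyte-like cells, a log2 ratio of 0.95 (0.78 to 1.12). *Kalrn*, another exchange factor, had 39 and 78 UMIs in astrocyte-like cells, a log2 ratio of 0.83 (0.26 to 1.43). *Dpysl4*, of the collapsin response mediator family downstream of semaphorins, was at 41.4 and 68.7 CPM in mature oligodendrocyte-like cells, and *Vasp*, an actin regulator, at 63.4 and 104 CPM in endothelial-like cells.

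The 4 pairs lower in SC300 lay in 4 different types. *Nck2*, an adaptor that links guidance receptors to actin, was at 51.1 and 26.7 CPM in endothelial-like cells. *Lrrc4c*, the netrin-G ligand of *Ntng1*, was at 42.5 and 25.5 CPM in newly formed oligodendrocyte-like cells. *Rgma*, a repulsive ligand of neogenin, was at 151 and 94.4 CPM in tanycyte-like cells, a log2 ratio of −0.68 (−0.91 to −0.45). *Srgap2*, of the GTPase-activating proteins that bind Robo receptors, was at 11.4 and 7.37 CPM in neuron-like cells.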

How the data were processed

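RNA was measured in 2 libraries, 1 of Control and 1 of SC300 rats. The authors deposited, for each library, a matrix of raw UMI counts per gene and cell barcode made with Cell Ranger (version 3.0.1 in the submitters' processing notes, 3.0.2 for demultiplexing) against the Ensembl 96 rat transcriptome. The design also names a step that merges the libraries with default parameters, and whether it changed the deposited counts is not stated. Both libraries list 32883 genes, and the only genome positions used are those of the RefSeq promoter windows (GRCr8).

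Barcodes with at least 200 detected genes were kept. Each cell was scored on 12 marker lists, none of which holds a guidance gene. A cell was gated with at least 3 detected markers and a lead of 1.25 over the next list, and gates were then refined by the multinomial likelihood of marker UMIs (each capped at 5) with a margin of 5. Cells with over 5% haemoglobin UMIs and cells between lists were set apart. Scrublet called 70 and 73 doublets, which were kept. UMIs were summed per gene, type and library and scaled to CPM. They were not divided by transcript length, since each molecule is counted once at its 3′ end.

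Exact 95% intervals are Poisson for CPM, Clopper-Pearson for shares and conditional binomial for ratios. They cover counting error only, the total depth was 51382276 UMIs in Control and 56390355 UMIs in SC300, and a count of 0 was read as at most 3 UMIs. With 1 library a group no test was made. Ratios between SC300 and Control were given for genes with at least 100 UMIs in a type, both libraries summed. Genes were named where they reached 20 CPM in a type in both libraries or passed 1.5-fold, and pathway genes for the 5 largest ratios in each direction. Some guidance genes below these limits were also described beside their families. Ratios, intervals and calls were tested on simulated Poisson counts, which hold counting error only, so the spread between cells was not covered. The members and lists were chosen with earlier results of these data known. The split of neuron-like cells by transmitter markers was added after the levels had been seen. Alternatives were other minimum counts and folds, other scalings, every cell weighted alike, a limit of 20% mitochondrial UMIs, doublets left out, graph clusters (30 principal components, resolution 0.7), the 3 leading cells left out, a stricter gate and cells thinned to 2000 UMIs. The tools were scanpy 1.11.5, leidenalg 0.10.2, scipy 1.17.1, numpy 2.4.6 and pandas 2.3.3 in Python 3.11.15.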

Additional observations from a re-analysis of the deposited data

Results flagged for a closer look

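*Dcc*, the attractive netrin receptor, was the 1 guidance gene whose contrast between neuron-like subsets had intervals on opposite sides of 0 in the 2 libraries. In Control it was at 7.81 CPM in *Slc17a6*-positive and 3.97 CPM in *Gad*-positive cells (24 and 28 UMIs), and the log2 ratio was 0.98 (0.13 to 1.81). In SC300 it was at 3.11 and 6.66 CPM (10 and 44 UMIs), and the log2 ratio was −1.10 (−2.25 to −0.09). The difference between the libraries was not tested, both intervals reach close to 0, and the counts are small.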

How the results depend on the processing

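No paired analysis was possible because each group has 1 library, so the groups share fewer than 2 replicate numbers, and for the same reason no replicate could be left out. With a minimum of 50 UMIs, 9 of 182 guidance pairs were at least 1.5-fold higher in SC300 and 8 lower (2 and 4 as reported), and 14 and 8 of 303 pathway pairs (7 and 4 as reported). With 200 UMIs, 1 of 89 guidance pairs was lower, and 3 of 203 pathway pairs were higher and 2 lower. At 2-fold, 0 guidance pairs were higher and 1 lower, and 1 pathway pair was higher and 0 lower. Shares over all genes were taken only at 100 UMIs and 1.5-fold. The counts at these other limits thus have no background beside them, and excess over all genes cannot be read from them. With every cell weighted alike, 1 guidance pair was higher. The other 37 counts over pairs and genes lay within 1.5 times those reported.

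In cells thinned to 2000 UMIs, the log2 ratio of the shares of cells with a UMI turned from 0.11 to −0.063 for *Sema4d* in newly formed oligodendrocyte-like cells and from 0.35 to −0.062 for *Nrp1* in neuron-like cells, and the cause was not tested. For *Unc5b* in tanycyte-like cells it went from −0.99 to −2.82, with 11 of 235 and 1 of 151 thinned cells that had a UMI. The highest type of all 37 genes was the same with graph clusters, with at most 20% mitochondrial UMIs and without doublets. It moved for *Nrp2* with every cell weighted alike and for *Efna1* and *Sema4c* with a stricter gate. No scaling moved the median of a type by over 0.1 on the log2 scale. Low genes are limited by depth, since 14 guidance genes had fewer than 100 UMIs in all cells.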
